A study of Equus caballus with 34 samples.

Results

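The change of each transcript from the early dominant to the preovulatory follicle was compared between the 2 layers of the equine follicle wall, as the change in granulosa cells minus the change in the theca wall. The comparison drew on 20 of the 34 single-colour arrays of the series, all those of its 4 groups with 5 arrays each: granulosa cells of early dominant follicles (GC ED), granulosa cells of preovulatory follicles (GC PO), theca wall of early dominant follicles (TW ED) and theca wall of preovulatory follicles (TW PO). The samples are horse RNA (Equus caballus), 1 array per sample, described in the design text as biological replicates. The labels name no treatment, and the animals' ages, the way preovulatory follicles were recognised, and whether a granulosa and a theca wall sample came from the same follicle are not given in the sources used here. The theca wall is a mixed tissue of theca cells, vessels and blood-borne cells, so that in these bulk samples fewer cells of a type and less RNA per cell cannot be told apart.

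Granulosa cells line the follicle's cavity without vessels of their own and turn theca androgen into oestradiol, while the theca around them holds the blood supply and makes that androgen. The surge of luteinising hormone before ovulation acts through its receptor on both layers; granulosa cells leave the cell cycle, the steroid output moves towards progesterone, and the wall is remodelled by epidermal growth factor-like ligands, prostaglandins and matrix proteases. The layers also signal to each other: granulosa cells secrete hedgehog ligands, and theca cells carry the receptor and the transcription factor that answer them.

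Levels are log2 of the processed spot signal relative to the array's 75th percentile, so that a level of 0 is that percentile and a difference of 1 is a doubling. A change is the mean level at PO minus the mean level at ED, and the difference of changes is the granulosa change minus the theca wall change, each given with the standard error (SE) of a linear model over the 20 arrays (limma). A change or difference is called where its Benjamini-Hochberg adjusted p over all 26648 features is below 0.05. The model holds 1 estimate of spread per feature, shared by the 4 groups. Leaving out an array of 1 layer can therefore alter a call in the other layer while the change itself stays the same. Where no array of a group was well above background, or all were saturated, the size of the change is a bound, given as "at least", and the adjusted p of a difference that rests on it is given without a size. Of these features, 10176 carried a gene symbol. Probes were well above background for 64.8% to 82.5% of spots on each of the 20 arrays (median 72.9%). With 5 arrays to a group, their number sets how precise the values are. Each granulosa slide held 1 GC ED and 1 GC PO array and each theca wall slide 1 TW ED and 1 TW PO array, so stage changes could be read within slides, but no slide held these arrays of both layers. This layout was taken from the scanner files, whereas the design text says that each group was represented on each slide.

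The mean levels of the granulosa and theca marker lists followed the labelled layers, with exceptions on single arrays and for single genes. The mean level of 15 granulosa markers was 1.75 to 2.62 on the GC ED arrays and -0.34 to -0.09 on the GC PO arrays, and lower in the theca wall (-2.88 to -0.27 at ED, -1.92 to -1.06 at PO). TW ED replicates 3 and 5 lay above the other TW ED arrays in that list, at -0.64 and -0.27 against -2.29 or lower. The 16 theca markers were at 1.99 to 2.60 in TW ED and 1.31 to 2.03 in TW PO, against -2.22 to -1.14 in GC ED and -2.22 to -1.36 in GC PO. Theca transcripts were still measured in granulosa samples: 15 of these 16 were well above background on at least 3 GC ED arrays, and 16 on at least 3 GC PO arrays. CYP17A1, a theca marker, was at 2.25 to 4.54 in GC ED and 1.24 to 4.06 in GC PO. The granulosa marker WT1 was lower in GC PO (-7.27 to -4.89) than in TW PO (-1.55 to -0.83). Leukocyte markers (26 genes) averaged -3.12 to -1.82 in TW ED and -0.95 to 0.03 in TW PO, and -5.63 to -4.46 in GC ED and -4.55 to -2.91 in GC PO. The list's mean was higher at PO on every slide of both layers. Single members differed: 11 rose and 3 fell in granulosa cells (24.5% and 24.7% of all features). In the theca wall 16 rose and none fell (12.7% and 6.44%). Of 19 endothelial markers, 5 were well above background on no GC ED array and 7 on no GC PO array, and the list's mean had a median of -2.84 over the TW ED arrays and -1.74 over the TW PO arrays. The part of these cell types in the changes below was not tested.

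**Figure D1:**
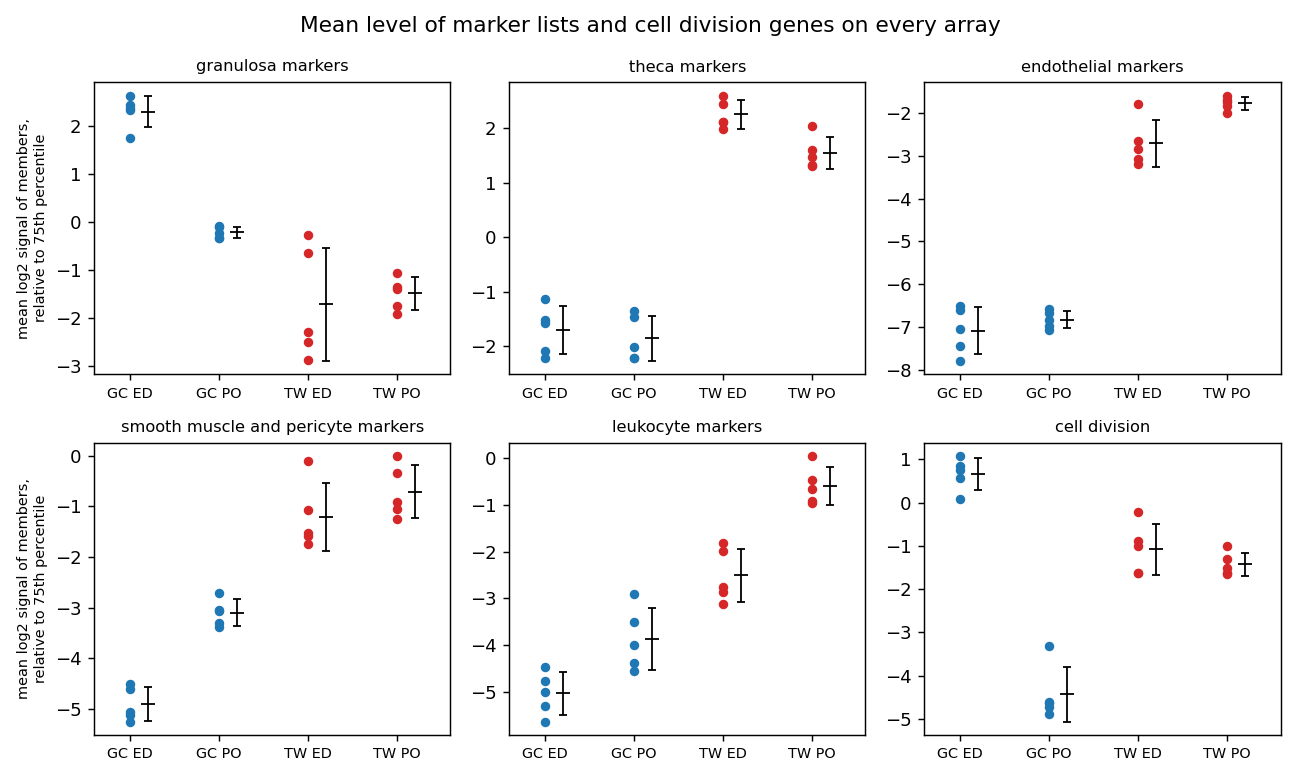
Mean log2 level of the members of 5 marker lists and of the cell division list on each of the 20 arrays (y axis, log2 signal relative to the 75th percentile of the array), by group (x axis); points are arrays, black bars are mean ± SD of the 5 arrays. Cell division genes averaged 0.09 to 1.07 on the GC ED arrays and -4.88 to -3.32 on the GC PO arrays, and TW ED replicates 3 and 5 stand above the other TW ED arrays for granulosa markers.

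The layers differed in their stage change at 8727 of 26648 features (32.7%): the granulosa change was the higher one at 3731 (14.0%) and the lower one at 4996 (18.7%). Granulosa cells alone gave 6534 rises (24.5%) and 6572 falls (24.7%), and the theca wall alone gave 3386 rises (12.7%) and 1716 falls (6.44%). The median absolute change over all features was 0.80 in granulosa cells and 0.48 in the theca wall. The split between higher and lower differences depended on how arrays were scaled: 3997 higher and 3881 lower after quantile normalization, and 5410 higher and 3707 lower with the median of each array in place of the 75th percentile. These scalings moved the median difference over all features from -0.20 to -0.01 and to 0.10, and under neither did a called difference that was called in both settings turn its sign.

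Calls in the layers and in their difference together put 5 classes apart from the rest. A feature called in granulosa cells and in the difference, but not in the theca wall, is of the granulosa class: 6193 features, 2737 rising and 3456 falling. The mirror image, the theca wall class, held 970 features, 749 rising and 221 falling. For 262 of these 970, neither granulosa group had 3 or more arrays well above background, so a granulosa change could have gone unmeasured. The same held in the theca wall for 166 of the 6193. Both layers were called in opposite directions for 362 features, of which 198 fell in granulosa cells and rose in the theca wall. Another 755 moved the same way by unequal amounts, the granulosa change being the larger at 709. The last class, 1818 features called the same way in both layers with no called difference, is named together (1152 up, 666 down). The 95% interval of the difference lay within 1 log2 unit of 0 for 348 of those 1818, so that for the others equality of the changes was not shown. Outside these 5 classes, 5175 features (19.4%) were called in 1 layer with no called difference, 447 in the difference alone and 10928 not at all. Without TW ED replicates 3 and 5, the theca wall arrays with high granulosa markers, the theca wall class held 468 features, the together class 1107, the unequal class 306 and the opposite class 155. The opposite class held 238 features without TW PO replicate 5 alone.

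**Figure D2:**
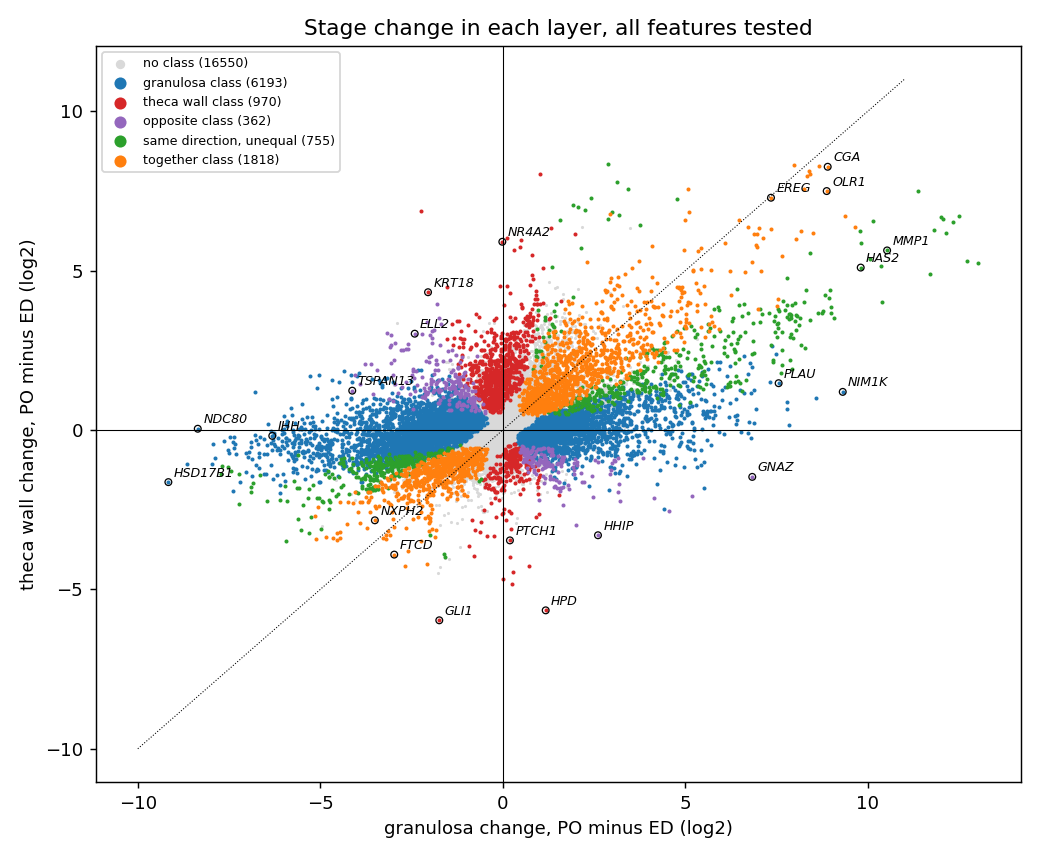
Granulosa change (x axis) against theca wall change (y axis), PO minus ED in log2 units, for all 26648 features, coloured by class; ringed points are named genes and the dotted line marks equal changes. The 6193 features of the granulosa class spread along the x axis, the 970 of the theca wall class along the y axis, and the 362 of the opposite class fill the upper left and lower right.

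Cell division genes fell almost throughout in granulosa cells. Of 51 measured members, 50 fell in granulosa cells (24.7% of all features) and 1 fell in the theca wall (6.44%). The median change was -5.46 in granulosa cells and -0.30 in the theca wall (0.04 and 0.11 over all features). The difference was called for 50 of the 51, all lower in granulosa cells, against 18.7% of all features, and under every alternative setting between 48 and 50 members had that call. The member without a called granulosa fall was AURKA, a mitotic kinase, and the member that fell in the theca wall was MCM5, part of the replicative helicase, both picked out after their values were seen. NDC80, a kinetochore component that ties chromosomes to the spindle, had levels of 0.47, 0.31, 0.40, 0.28 and 0.17 on the 5 GC ED arrays and -8.44, -8.84, -7.69, -6.61 and -8.57 on the GC PO arrays. In TW it was at -1.51, -2.68, -1.50, -2.63 and -2.11 at ED and -1.81, -2.32, -2.27, -1.64 and -2.19 at PO. The granulosa groups lay far apart while the theca wall groups overlapped. NDC80 was not well above background on any GC PO array, so the granulosa fall was at least 141-fold, and the difference of changes was called (adjusted p = 4.62e-09).

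Other mitotic genes had the same shape. The microtubule-organising gene ASPM fell by 7.95 in granulosa cells with a theca wall change of -0.43 (difference -7.52 ± 0.58), and the cytokinesis motor KIF20A, with 1 GC PO array well above background, fell by 7.89 with a theca wall change of -0.87 that was called with normexp (adjusted p = 0.0219) and in the deposited table (0.0371). SGO1, which guards sister chromatid cohesion, fell at least 43.6-fold in granulosa cells and changed by -0.21 in the theca wall. CENPF, another kinetochore gene, fell at least 121-fold in granulosa cells, and its theca wall change of -1.05 missed the threshold (adjusted p = 0.0837). That theca wall fall was called after quantile normalization (adjusted p = 0.0187), with the median of each array (0.0229), with normexp (0.00821), in the deposited table (0.00617), with slide as a block (0.0242), with array weights (0.0262) and without TW PO replicate 4 (-1.31) or TW ED replicate 5 (-1.32), and CENPF kept its class in 9 of 16 settings. GC PO replicate 4 kept the highest level of this list, -3.32 against -4.61 or lower on the other GC PO arrays. On the 5 granulosa slides the list's mean changed by -5.68 to -4.18, and on the theca wall slides it moved between -0.78 and 0.11.

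A gene of oestradiol synthesis and single genes of activin and bone morphogenetic protein signalling fell in granulosa cells. Their theca wall changes were not called in the main setting. Other genes of the transforming growth factor family rose in granulosa cells. HSD17B1, which converts oestrone to oestradiol, was at 3.34, 3.70, 3.23, 4.03 and 0.97 in GC ED and at -6.51, -4.87, -6.50, -5.77 and -6.90 in GC PO. Its theca wall levels were -6.14, -5.45, -2.04, -5.15 and -1.33 at ED and at -6.18, -5.59, -5.93, -4.64 and -5.94 at PO. All GC PO arrays lay below all GC ED arrays, and the high TW ED arrays were replicates 3 and 5. The granulosa fall was 9.16, or 573-fold, and the difference of changes -7.53 ± 1.11 (adjusted p = 6.89e-05). With array weights the theca wall change of HSD17B1 was called as well (-2.23, adjusted p = 0.0317). INHBB, the activin and inhibin subunit beta B, fell by 5.61 in granulosa cells against a theca wall change of -0.24 (difference -5.37 ± 0.96). ID2, an inhibitor of differentiation factors downstream of bone morphogenetic proteins, fell by 4.18, with a theca wall change of 0.66 from 9 unflagged arrays. SMAD2, which carries activin signals to the nucleus, fell by 3.29 against a theca wall change of 0.13, also from 9 unflagged arrays, and FOXO1, a transcription factor held in check by follicle-stimulating hormone, fell by 3.53 against -0.38. In the list of inhibin, activin and bone morphogenetic protein genes, the difference was lower in granulosa cells for 9 of 25 members (18.7% of all features). It was higher for 1 (14.0% of all features), and the median was -1.03 (-0.20 over all features). The higher one, SMAD7, an inhibitor of the pathway, rose at least 3.49-fold in granulosa cells and changed by -0.05 in the theca wall. TGFB2, a ligand of the family, rose from -3.09, -2.33, -2.93, -1.74 and -2.76 in GC ED to 2.92, 1.58, 3.65, 0.27 and 4.31 in GC PO, by 5.11 ± 0.56. Its theca wall change of 1.23 missed the threshold (adjusted p = 0.129), and the difference was 3.88 ± 0.79 (adjusted p = 0.00111). That theca wall rise was called without GC PO replicate 4 (adjusted p = 0.0472), in the deposited table (1.29, 0.0496) and with array weights (1.51, 0.00171). TGFB3, another ligand, rose by 3.91 in granulosa cells, with 1 GC ED array well above background, and changed by 0.38 in the theca wall. The ion channel gene ANO2, with 1 GC PO array well above background, fell by 7.64 in granulosa cells, with a theca wall change of -0.33.

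Among granulosa rises, PLAU, the urokinase that activates plasminogen, was at -3.64, -3.11, -4.60, -3.58 and -5.88 in GC ED and at 4.40, -0.85, 4.60, 4.16 and 4.68 in GC PO. TW ED levels were 0.31, 0.08, 0.10, 0.71 and -0.82 and TW PO levels 1.68, 1.55, 1.56, 1.23 and 1.72. The groups did not overlap in either layer, and GC PO replicate 2 stood well below the other GC PO arrays. The granulosa rise was 188-fold (7.56 ± 0.79) and the difference of changes 6.09 ± 1.12 (adjusted p = 0.000482). The theca wall rise of 1.47 missed the threshold in the full data. Without GC PO replicate 2 the rise was unchanged, with an SE of 0.40 from the shared spread. It was then called (adjusted p = 0.0134), which places PLAU among the unequal changes. NIM1K, a kinase of the AMP-activated kinase group, rose at least 269-fold from below background on all GC ED arrays, to 1.84, -3.57, 2.13, 2.60 and 2.37 in GC PO, with replicate 2 again the lowest. P4HA3, a collagen prolyl hydroxylase, rose by 6.89 in granulosa cells and changed by 0.23 in the theca wall (difference 6.66 ± 0.68, adjusted p = 1.61e-06). COL4A1, a basement membrane collagen, rose by 4.75 in granulosa cells. It was at -2.12 to 0.96 in GC ED and 4.12 to 5.03 in GC PO, while its theca wall levels of 3.18 to 3.73 at ED and 3.62 to 4.08 at PO gave a change of 0.41. With this rise GC PO lay above TW PO, whereas GC ED had lain below TW ED.

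Most cholesterol genes rose in granulosa cells, and steroid synthesis genes moved both ways. STAR, which moves cholesterol into mitochondria, was at 2.14, 0.42, -2.55, 2.30 and -2.51 in GC ED and 4.42, 4.76, 4.57, 1.59 and 4.17 in GC PO. In the theca wall it was at 5.37, 4.63, 5.10 and 5.07 on the 4 unflagged ED arrays and at 5.10, 3.92, 5.08, 5.70 and 4.22 at PO. The granulosa groups overlapped through GC PO replicate 4, and on its slide STAR was lower at PO by 0.71, while on the other 4 slides it was higher. The granulosa rise was 3.94 ± 0.85 and the difference 4.18 ± 1.24 (adjusted p = 0.0156; 0.0546 without TW ED replicates 3 and 5). FDX1, the ferredoxin that feeds electrons to mitochondrial steroid enzymes, was saturated on all 5 GC PO arrays and rose at least 11.2-fold in granulosa cells. It changed by 0.25 in the theca wall, and the difference was called (adjusted p = 6.76e-06). For CYP11A1, the side-chain cleavage enzyme, neither layer's change was called (0.68 and -0.49), and the difference of 1.17 ± 0.42 (adjusted p = 0.0382) was not called when any 1 of 8 arrays was left out, namely TW ED replicates 1, 3 and 5, TW PO replicates 1 and 5 or GC ED replicates 2, 3 and 5 (0.99 to 1.16, adjusted p 0.0548 to 0.0755). Nor was it called with slide as a block (adjusted p = 0.0688), after quantile normalization (0.86, 0.159), with normexp (0.75, 0.224), in the deposited table (0.80, 0.199) or with all 34 arrays (0.237). Its granulosa rise was called without GC PO replicate 1 (0.82, adjusted p = 0.0357) and with the median of each array (0.73, 0.0348). The same rise was called with the mean of all probes (0.72, adjusted p = 0.0421) and with the trended robust fit (0.68, 0.0423). Array weights gave a called theca wall fall of CYP11A1 (-0.67, adjusted p = 0.0124).

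Of 22 steroid synthesis genes, 9 rose and 5 fell in granulosa cells (24.5% and 24.7% of all features) and 3 rose and 4 fell in the theca wall (12.7% and 6.44%), with median changes of -0.04 and -0.38. The difference was higher in granulosa cells for 9 and lower for 3 (14.0% and 18.7% of all features; median 0.52). In cholesterol synthesis and uptake, 21 of 26 members rose in granulosa cells (24.5% of all features) and 5 in the theca wall (12.7%), and none fell. The difference was higher for 10 and lower for 2 (14.0% and 18.7% of all features), with a median of 0.88. NSDHL and TM7SF2, both enzymes of the later steps of cholesterol synthesis, rose by 2.57 and 3.06 in granulosa cells, against -0.32 and -0.09 in the theca wall. NSDHL reached 3.16 to 3.89 in GC PO, above all its TW ED levels of 1.92 to 2.29. All GC PO arrays lay above all GC ED arrays for both genes, and the theca wall groups overlapped. Glycolysis and the hypoxia response rose in granulosa cells at 24 of 34 members (24.5% of all features) and in the theca wall at 10 (12.7%). There 13 differences were higher and 1 lower (14.0% and 18.7% of all features), with a median of 0.77. For the mitochondrial respiratory chain, 18 of 33 members rose and 1 fell in granulosa cells (24.5% and 24.7% of all features). In the theca wall none rose and 4 fell (12.7% and 6.44%). The difference was higher for 18 and lower for none (14.0% and 18.7%). The count for the respiratory chain ranged from 11 to 29 over the alternative settings, with a positive median difference in each (0.50 to 1.08). The median change of the respiratory chain list was 0.57 in granulosa cells and -0.27 in the theca wall. NDUFS3, a complex I subunit, was 1 of its 2 members of the opposite class. It rose by 0.61 in granulosa cells and fell by 0.77 in the theca wall (difference 1.39 ± 0.21). Its granulosa rise was not called after quantile normalization (0.28, adjusted p = 0.143), with normexp (0.28, 0.133) or in the deposited table (0.28, 0.161).

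**Figure D3:**
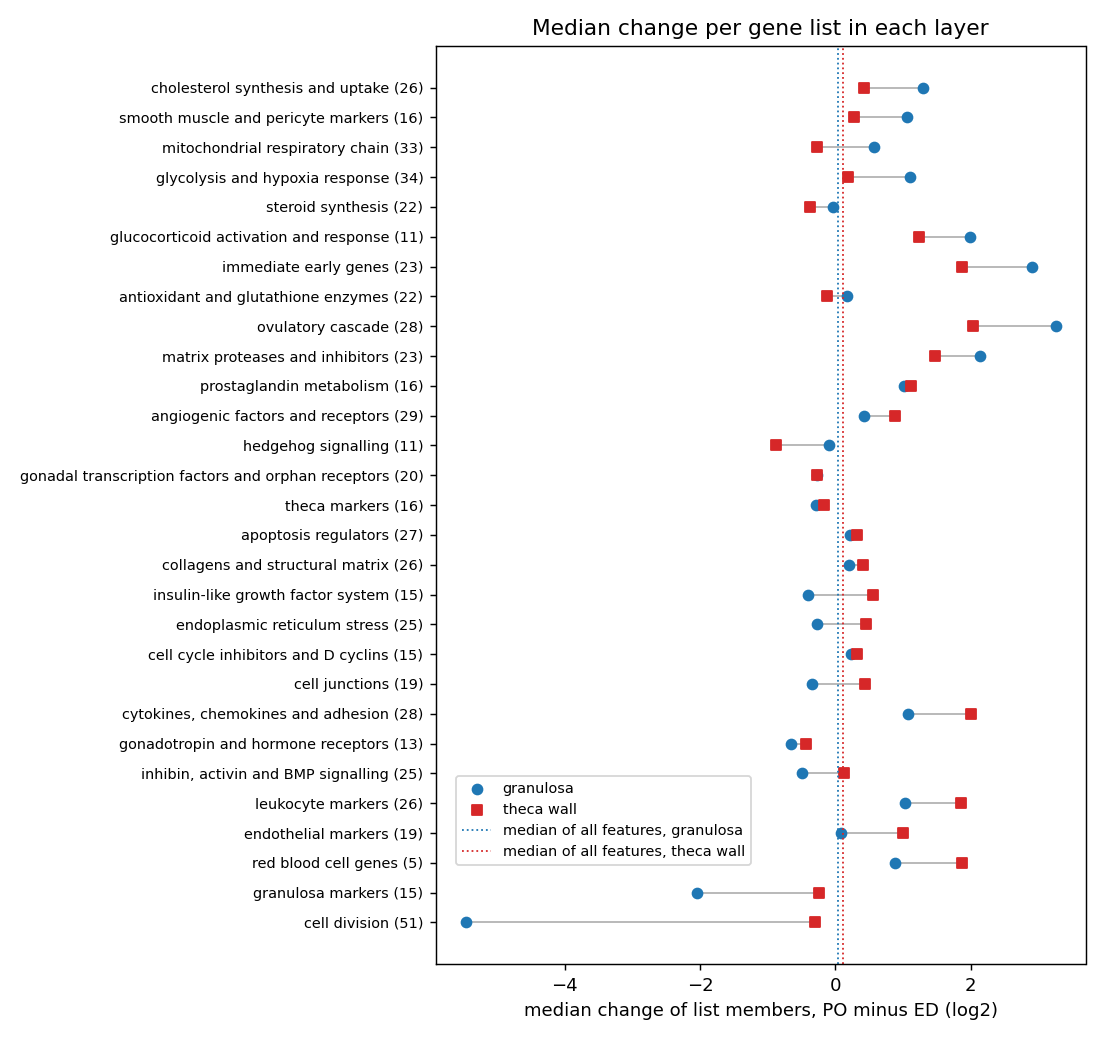
Median change of the members of each of 29 gene lists, PO minus ED in log2 units (x axis), in granulosa cells (circles) and the theca wall (squares), with the number of genes tested in brackets and dotted lines at the medians over all features (0.04 and 0.11). Lists are sorted by median difference, from cholesterol synthesis and uptake at 0.88 to cell division at -4.89.

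The hedgehog genes changed in different layers according to their role. IHH, the ligand, was at -1.65, -2.23, 0.86, -1.39 and -4.70 in GC ED and -8.65, -8.67, -7.70, -8.50 and -7.17 in GC PO. In the theca wall it was well above background on 2 arrays at each stage, with levels from -9.23 to -6.48 at ED and -9.80 to -6.10 at PO. All GC ED arrays lay above all other arrays of the 4 groups, and only 1 GC PO array was still well above background. The granulosa fall was 6.32 and the difference -6.13 ± 1.19 (adjusted p = 0.000804). PTCH1, the receptor and itself a hedgehog target, was at -1.40, -0.47, -1.49, -1.47 and -2.36 in TW ED and -5.38, -4.14, -5.32, -4.22 and -5.44 in TW PO. Its granulosa levels were -4.85, -4.77, -5.87, -4.03 and -6.01 at ED and -4.34, -4.95, -5.43, -4.40 and -5.43 at PO. The theca wall groups did not overlap, the granulosa groups did, and TW PO had come down to the granulosa range. The theca wall fall was 3.46, or 11.0-fold, and the difference 3.66 ± 0.58 (adjusted p = 0.000139), though the 6 probes of PTCH1 gave differences from -0.99 to 4.06, and the values here are those of the brightest.

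GLI1, the transcription factor that hedgehog induces, was at 0.86, 2.25, 1.03, 1.74 and 0.36 in TW ED and -5.96, -2.45, -6.98, -2.96 and -5.26 in TW PO, a 62.7-fold fall, and it was lower at PO on every theca wall slide. Its granulosa levels were -6.29 to -2.63 at ED and -5.93 to -5.18 at PO, and the difference was 4.23 ± 1.07 (adjusted p = 0.00562). The granulosa change of -1.74 missed the threshold (adjusted p = 0.0642). It was called with slide as a block (adjusted p = 0.0335), with normexp (-1.35, 0.00456), in the deposited table (-1.20, 0.0381), with all 34 arrays (0.0395) and without TW PO replicate 2, TW PO replicate 3 or GC ED replicate 5 (-2.38 for the last), which would place GLI1 among the unequal falls. HHIP, a secreted antagonist that binds the ligand, went opposite ways: from -6.31, -7.02, -6.84, -5.23 and -7.21 in GC ED to -4.14, -5.46, -2.65, -2.70 and -4.62 in GC PO, and from -2.32, -1.48, -1.93, -2.89 and -3.78 in TW ED to -5.56, -6.16, -6.47, -5.23 and -5.50 in TW PO. It was higher at PO on 5 of 5 granulosa slides and lower on 5 of 5 theca wall slides, so that GC PO overlapped TW PO, with a difference of 5.91 ± 0.75 (adjusted p = 1.61e-05). Over the list of 11 measured hedgehog genes, 4 fell and 1 rose in granulosa cells (24.7% and 24.5% of all features). In the theca wall 5 fell and 1 rose (6.44% and 12.7%). The differences split into 3 higher and 3 lower (14.0% and 18.7%). PTCH1, GLI1 and HHIP are also members of the theca marker list.

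**Figure D4:**
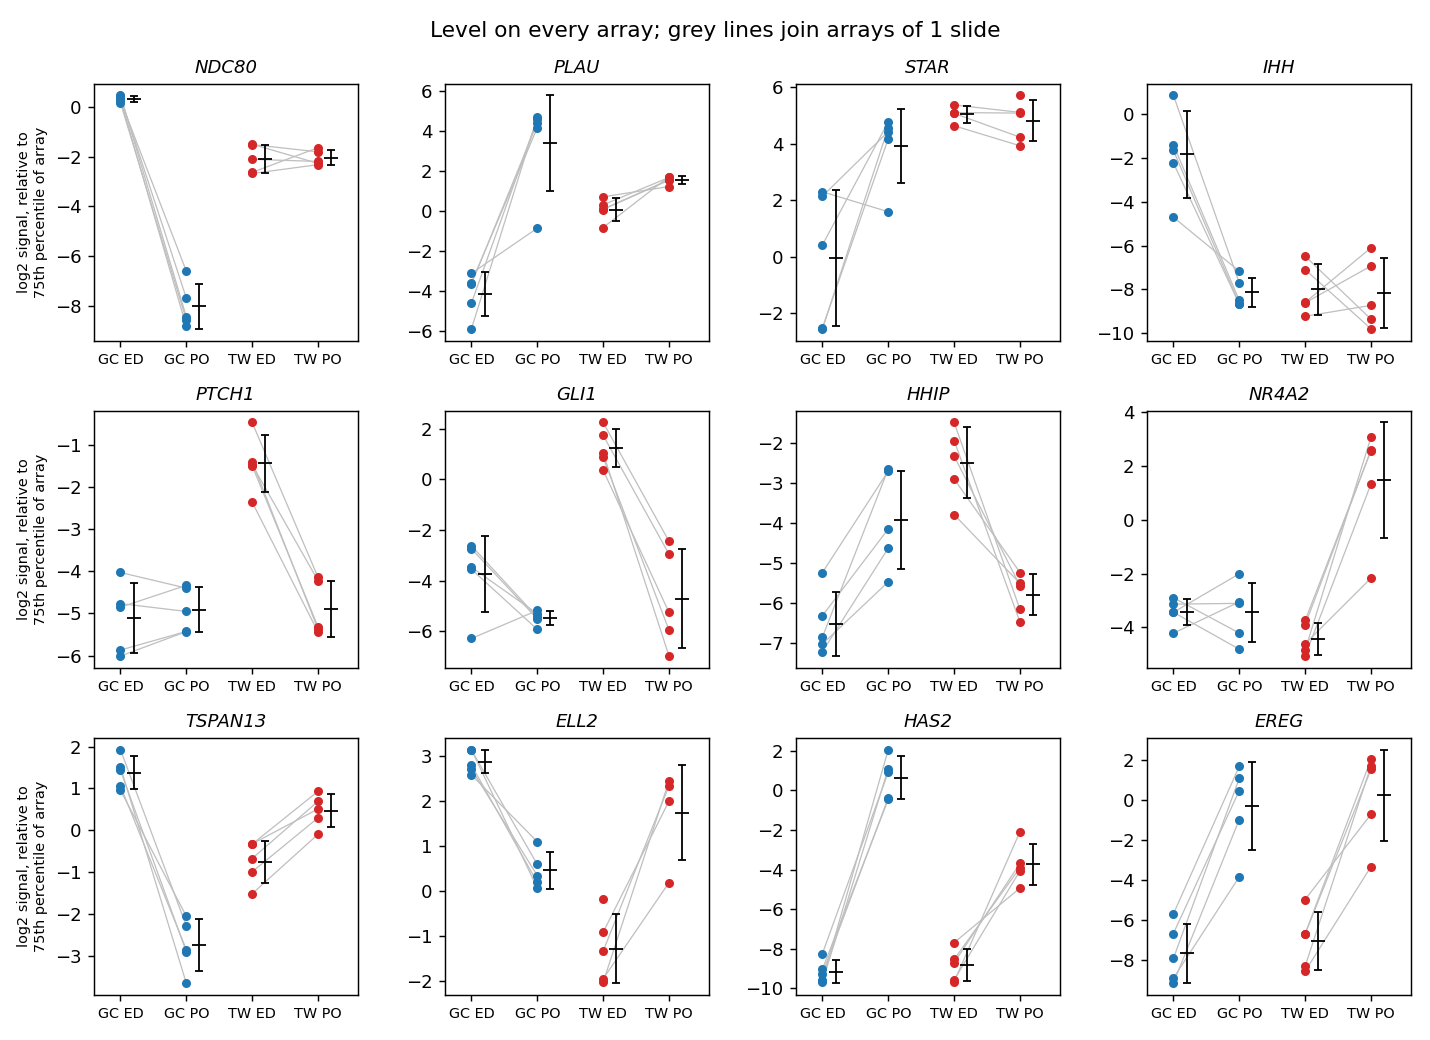
Log2 level relative to the array's 75th percentile (y axis, scale differs between panels) on every array of the 4 groups (x axis) for 12 genes; grey lines join the ED and PO array of 1 slide, black bars are mean ± SD. NDC80, PLAU, STAR and IHH moved in granulosa cells, PTCH1, GLI1 and NR4A2 in the theca wall, HHIP, TSPAN13 and ELL2 in opposite directions, HAS2 unequally and EREG in both layers; STAR and ELL2 each lack 1 theca wall array whose spot was marked as an outlier.

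Within the theca wall class, the orphan nuclear receptor NR4A2 had the largest rise among named genes measured in both layers: TW ED was at -3.74, -4.61, -4.84, -5.06 and -3.90 and TW PO at 2.57, -2.17, 3.07, 1.33 and 2.58. Granulosa levels were -4.21, -3.43, -3.44, -2.89 and -3.13 at ED and -3.05, -4.81, -2.01, -4.21 and -3.10 at PO. The theca wall groups did not overlap, TW PO replicate 2 being the lowest, and the granulosa groups did. The rise was 60.0-fold in the theca wall (5.91 ± 0.74) against a granulosa change of -0.01, and the difference was -5.92 ± 1.05 (adjusted p = 0.000346). NR4A1, the related receptor, rose in both layers instead, by 3.06 in granulosa cells and 2.83 in the theca wall (difference 0.23 ± 0.72, 95% interval -1.28 to 1.73). KRT18, an epithelial keratin used here as a granulosa marker, rose by 4.32 in the theca wall, from -3.14, -3.11, -0.33, -3.45 and -3.04 to 3.24, 3.20, 1.59, 0.42 and 0.10. Its granulosa change of -2.05 missed the threshold (adjusted p = 0.0892). It was called with slide as a block (adjusted p = 0.0403), which puts KRT18 in the opposite class, with array weights (-2.70, 0.0395) and without GC PO replicate 2 (-2.91, adjusted p = 0.00899) or GC ED replicate 5 (-2.75, adjusted p = 0.0216). At PO the theca wall and granulosa levels of KRT18 overlapped.

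Signalling genes of the theca wall class included IL6, IGFBP4, FGF9 and PGR. IL6, an inflammatory cytokine, rose by 2.84 in the theca wall to -1.47, -5.94, -1.15, -2.05 and -3.34, with replicate 2 the lowest, and was well above background on 1 granulosa array at ED and none at PO; the theca wall rise was not called without TW ED replicates 3 and 5 (2.60, adjusted p = 0.0556). IGFBP4, a binding protein for insulin-like growth factors, rose by 2.87, from -4.48 to -3.95 in TW ED to -2.20 to -0.69 in TW PO, and was well above background on 2 GC ED arrays and no GC PO array (its granulosa change was called without GC ED replicate 4, -1.76, adjusted p = 0.0302). FGF9, a fibroblast growth factor, rose by 3.29 in the theca wall against -0.94 in granulosa cells. PGR, the progesterone receptor, rose by 1.66 in the theca wall, being at -2.52 to -1.93 in TW ED and -1.61 to 0.16 in TW PO, with a granulosa change of -0.18 and a difference of -1.84 ± 0.52 (adjusted p = 0.0117). The 2 probes of PGR differed (-1.84 and -0.66), and with their mean the difference was -1.25 (adjusted p = 0.119). The endothelial receptor gene ROBO4 rose by 1.35 in the theca wall and changed by -0.22 in granulosa cells. It is 1 of 6 among 19 endothelial markers that rose in the theca wall (12.7% of all features did), a list whose difference was lower in granulosa cells for 4 members, near the 18.7% of all features.

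Falls of the theca wall class were fewer. HPD, an enzyme of tyrosine breakdown, was at -1.75, -3.74, -1.46, -3.08 and -2.58 in TW ED and -9.55, -9.12, -7.28, -6.50 and -8.45 in TW PO, where 1 array was well above background. In granulosa cells it was at -9.01 to -5.51 at ED and -6.87 to -4.32 at PO. The theca wall groups did not overlap and the granulosa groups did, with a difference of changes of 6.83 ± 0.99 (adjusted p = 5.94e-05). CRIPTO, a co-receptor for nodal, fell by 3.64 in the theca wall on the 9 unflagged arrays; its granulosa change of -0.94 (adjusted p = 0.0657) was called with slide as a block (0.0424), after quantile normalization (-1.02, 0.0305) and without TW ED replicate 5 (-0.94) or GC ED replicate 5 (-1.28). TNNI1, a troponin subunit, fell by 3.31 in the theca wall and changed by -0.43 in granulosa cells.

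GNAZ, a G protein alpha subunit, went opposite ways. It rose in granulosa cells from below background on all GC ED arrays to -1.63, -1.90, -3.37, -1.21 and -2.23 in GC PO, at least 30.4-fold, and fell in the theca wall from -3.83, -3.43, -3.46, -3.98 and -3.88 to -5.64, -3.71, -5.47, -5.19 and -5.91. The granulosa groups did not overlap, the theca wall groups overlapped through TW PO replicate 2, and the difference was called (adjusted p = 3.19e-08). NR0B2, a nuclear receptor that represses other receptors, rose by 2.00 in granulosa cells and fell by 2.99 in the theca wall (difference 5.00 ± 0.88). Genes with the reverse orientation included TSPAN13, a tetraspanin membrane protein, at 1.93, 0.96, 1.06, 1.51 and 1.44 in GC ED and -2.28, -2.05, -2.85, -3.65 and -2.90 in GC PO. In the theca wall it went from -0.33, -1.51, -0.32, -0.99 and -0.67 to 0.93, -0.09, 0.51, 0.30 and 0.69. Neither layer's groups overlapped, and the order of the layers turned over: granulosa cells were higher at ED and the theca wall at PO. The elongation factor ELL2 had the same pattern, falling by 2.41 in granulosa cells and rising by 3.02 in the theca wall on 9 unflagged arrays, as did RNF32, a RING finger protein (-4.04 and 1.72), and HPSE, the enzyme that cuts heparan sulphate (-2.64 and 2.54). With all 34 arrays the theca wall changes of GNAZ (adjusted p = 0.139), TSPAN13 (0.12) and RNF32 (0.0681) and the granulosa rise of NR0B2 (0.0559) were not called, nor was the theca wall rise of HPSE with normexp (0.35, 0.153). Without TW ED replicates 3 and 5, the theca wall changes of GNAZ (adjusted p = 0.0684) and RNF32 (0.0573) were not called.

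MMP14, a membrane-bound matrix protease, fell by 1.50 in granulosa cells, where 2 GC PO arrays were well above background, and rose by 2.48 in the theca wall. The granulosa fall of MMP14 was not called with normexp (-0.23, adjusted p = 0.297) or in the deposited table (-0.58, 0.0781). IGFBP5 fell by 1.44 and rose by 2.18, its granulosa fall not being called without GC ED replicate 1 or GC PO replicate 3 (-1.19 and -1.24, adjusted p = 0.0552 and 0.0533), with normexp (-0.48, 0.102), in the deposited table (-0.78, 0.0748) or with all 34 arrays (0.131). TSC22D3, a glucocorticoid-induced gene, rose by 1.66 in granulosa cells and fell by 1.77 in the theca wall; without TW PO replicate 5 its theca wall fall was -1.55 (adjusted p = 0.057).

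For some genes of this class the granulosa change and the difference were called throughout but the theca wall call depended on single arrays, and for some also on the processing. The theca wall rise of GPA33 was not called after quantile normalization (1.63, adjusted p = 0.0751), with normexp (0.28, 0.271) or in the deposited table (0.61, 0.139). That of WT1 was not called with the median of each array (0.0544). With all 34 arrays the theca wall changes of WT1 (0.0697), EPB41L1 (0.0804) and PARD6A (0.218) were not called. The atrial myosin light chain gene MYL7 rose at least 10.5-fold in granulosa cells, and its theca wall fall of 2.55 was not called without TW PO replicate 1, 3 or 5 (adjusted p 0.0504 to 0.0561). For WT1, a transcription factor of gonadal precursor cells and another granulosa marker here, the granulosa fall was 3.92 and the theca wall rise 1.45, the latter not called without TW ED replicate 1, 2, 3 or 5 or TW PO replicate 1, 3, 4 or 5 (adjusted p 0.0532 to 0.0716), nor with slide as a block (0.0618). The same held for the theca wall changes of GPA33 (2.08; TW ED replicates 1 to 4, TW PO replicates 1, 2 and 4), EPB41L1 (-1.69; TW ED replicates 2 to 4, TW PO replicates 1, 3 and 5) and PARD6A (-0.88; TW ED replicates 1, 3 and 5, TW PO replicates 1, 3, 4 and 5), with adjusted p up to 0.0729, 0.0984 and 0.11 when 1 of those arrays was left out; with slide as a block that of PARD6A was not called (0.0821).

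Several ovulatory genes rose in both layers by unequal amounts. HAS2, which makes the hyaluronan of the expanding cumulus, was below background on all ED arrays of both layers and reached 0.92, -0.46, 1.09, -0.38 and 2.05 in GC PO and -3.91, -3.69, -4.06, -4.93 and -2.08 in TW PO. The GC PO arrays all lay above the TW PO arrays. The rise was at least 199.6-fold in granulosa cells and at least 9.90-fold in the theca wall. Both changes of HAS2 are bounds, so the size of their difference was not measured and its place in the unequal class rests on values below background (adjusted p = 0.000143; 0.0796 in the fit on all 34 arrays). With normexp background correction and quantile normalization the theca wall rise of HAS2 was not called (0.81, adjusted p = 0.0668). MMP1, an interstitial collagenase, reached 1.88, 1.15, 2.33, -0.40 and 3.06 in GC PO and -1.09, -2.15, -2.40, -3.89 and -0.53 in TW PO, rising at least 388-fold in granulosa cells and by 5.63 in the theca wall, where 1 TW ED array was well above background. The difference was called (adjusted p = 0.00342), but not with all 34 arrays (0.095). PTX3, a pentraxin of the cumulus matrix, rose by 8.94 in granulosa cells and by 4.16 in the theca wall on 8 unflagged arrays, where TW ED had already been higher (-1.31 to 1.09 against -6.21 to -2.98 in GC ED). With all 34 arrays the difference of PTX3 had an adjusted p of 0.0529. BDNF, a neurotrophin well above background on 1 GC ED and 2 TW ED arrays, rose by 8.83 and 4.23. HSD11B1, which regenerates active glucocorticoid, rose at least 70.3-fold in granulosa cells and by 4.38 in the theca wall, a difference that was called (adjusted p = 0.000875) but not with normexp (0.134) or with all 34 arrays (0.0696).

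DEFB4B, a beta-defensin well above background on 1 GC ED array, rose by 10.39 in granulosa cells and 4.02 in the theca wall (difference 6.37 ± 1.33, adjusted p = 0.0014), on 5 of 5 slides in each layer. Without TW ED replicates 3 and 5 its theca wall rise was not called (3.06, adjusted p = 0.0659). CHN1 rose by 7.61 and 1.79 with all PO arrays above all ED arrays of the same layer; with all 34 arrays its theca wall rise was not called (adjusted p = 0.251). CNN1, the smooth muscle calponin, rose at least 91.1-fold in granulosa cells and by 1.91 in the theca wall; the theca wall rise was not called without TW PO replicate 3 (1.60, adjusted p = 0.0557) or with all 34 arrays (0.242). Smooth muscle and pericyte markers as a list rose at 7 of 16 members in granulosa cells (24.5% of all features) and at 2 in the theca wall (12.7%, about the list's own share), with a median difference of 0.80. EDN2, an endothelin that contracts smooth muscle, rose from -6.12, -5.81, -6.48, -6.65 and -7.28 in GC ED to 4.15, -0.35, 4.67, -0.75 and 5.27 in GC PO, a 535-fold rise with 2 arrays apart from the other 3. Its theca wall rise of 3.53 was not called without TW ED replicate 1, 3 or 5 or TW PO replicate 1 or 5 (2.80 to 3.39, adjusted p 0.0575 to 0.0827), nor with slide as a block (0.0549) or with normexp (1.57, 0.225). Nor was it called in the deposited table (2.25, adjusted p = 0.0911), with all 34 arrays (0.0786) or without TW ED replicates 3 and 5 (3.11, 0.137). ADM, the vasodilator adrenomedullin, rose by 4.87 in granulosa cells, and its theca wall rise of 1.39 was not called without TW ED replicate 2 or 5 or TW PO replicate 2 or 5 (1.30 to 1.37, adjusted p 0.0523 to 0.0655), nor with slide as a block (0.0927). The call was also lost with the median of each array (1.13, adjusted p = 0.0536), with all 34 arrays (0.18) and without slide 7 (1.49, 0.0519). It was lost too without TW ED replicates 3 and 5 (1.25, adjusted p = 0.123) and without replicate 2 of GC PO and TW PO (1.35, 0.0535).

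Other ovulatory genes rose together. EREG, an epidermal growth factor-like ligand, was at -6.66, -8.89, -5.68, -9.14 and -7.91 in GC ED and 0.47, -3.83, 1.69, -0.97 and 1.09 in GC PO, and at -8.30, -8.55, -6.69, -4.97 and -6.68 in TW ED and 1.72, -3.32, 1.54, -0.70 and 2.03 in TW PO. All PO arrays lay above all ED arrays, the layers overlapped at both stages, and replicate 2 was the lowest at PO in both layers. EREG was well above background on 1 GC ED and 3 TW ED arrays. The rises were 7.35 and 7.29, and the difference 0.06 ± 1.56 had a 95% interval from -3.20 to 3.32. AREG, a ligand of the same receptor, rose at least 5.20-fold in granulosa cells and by 4.61 in the theca wall, where 1 TW ED array was well above background. CGA, the alpha subunit shared by the gonadotropins, rose by 8.90 and 8.26 from lower levels in granulosa cells (-8.49 to -5.59 against -4.55 to -3.09 at ED). OLR1, a receptor for oxidised lipoprotein, rose at least 116-fold in granulosa cells and by 7.50 in the theca wall, where 1 TW ED array was well above background. ALDH1A3, which makes retinoic acid, rose at least 113-fold in granulosa cells and by 7.57 in the theca wall. Its fitted difference of 0.68 rests on GC ED values below background and was -2.62 (adjusted p = 0.0253) with normexp background correction and quantile normalization.

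Over the 28 genes of the ovulatory cascade list, 19 rose and 3 fell in granulosa cells (24.5% and 24.7% of all features). In the theca wall 18 rose and 1 fell (12.7% and 6.44%). The together class held 11 of them and the unequal class 5 (6.82% and 2.83% of all features). The median change was 3.26 in granulosa cells and 2.03 in the theca wall, and the difference was higher for 7 and lower for 4 (14.0% and 18.7% of all features). Immediate early genes rose at 19 of 23 members in granulosa cells (24.5% of all features) and 14 in the theca wall (12.7%). None fell, and 11 were of the together class (6.82% of all features). Matrix proteases and inhibitors rose at 14 of 23 and 12 of 23 (24.5% and 12.7% of all features), with 4 falling in granulosa cells (24.7% of all features) and none in the theca wall. Among genes that fell together, FTCD, an enzyme of histidine breakdown, fell by 2.97 in granulosa cells and 3.91 in the theca wall, where it had been the more abundant (1.53 to 2.95 in TW ED against -6.37 to -1.09 in GC ED). Its difference of 0.93 was not called in the main setting but was with normexp (2.55, adjusted p = 0.0131). NXPH2, a neurexophilin, fell by 3.50 and 2.83, on every slide of both layers.

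For 8 genes central to follicle function no difference between the layers' changes was called in the main setting. FSHR, the receptor for follicle-stimulating hormone, fell in granulosa cells from 0.28, 0.47, 1.10, 0.13 and 0.63 to -2.31, -6.82, -1.92, -1.74 and -3.19. In the theca wall it was well above background on 2 ED and 1 PO arrays, with levels of -8.81, -7.67, -5.41, -8.06 and -3.01 at ED. The granulosa groups did not overlap, and the theca wall level stood highest on TW ED replicate 5. The difference of -2.77 ± 1.35 (adjusted p = 0.124) was called without TW ED replicate 5 (-3.67, adjusted p = 0.0219) and, on all 20 arrays, with normexp (-2.17, 0.0024) and in the deposited table (-2.38, 0.021). CYP19A1, the aromatase, was at 6.15, 5.89, 5.06, 5.84 and 5.38 in GC ED, 4 of them saturated, and at 4.82, 3.67, 4.54, 4.97 and 4.81 in GC PO. Its theca wall levels were -2.42, -1.95, 2.79, -2.40 and 3.95 at ED and -0.01, 0.40, -1.27, -0.55 and -0.14 at PO. The granulosa groups did not overlap, yet the change of -1.10 was not called (adjusted p = 0.36), its SE resting on a spread shared with the theca wall arrays. That change is from the brightest probe, and saturation at ED can only make a fall look smaller; with the mean of all 10 probes the granulosa fall was called (-3.36, adjusted p = 0.0419). In the theca wall, TW ED split into 3 arrays near -2 and replicates 3 and 5. Leaving out those 2 arrays, which were chosen by this gene among others, the theca wall change was 1.94 in place of -0.31 and the difference -3.04 in place of -0.79. The granulosa change stayed at -1.10, with an SE of 0.32 from the shared spread (adjusted p = 0.00841). These values describe the choice and are no test of it. The 10 probes of CYP19A1 gave differences from -3.89 to -0.79.

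LHCGR, the receptor for luteinising hormone, fell by 1.66 in the theca wall. That fall was not called with all 34 arrays (adjusted p = 0.137) or without TW ED replicates 3 and 5 (0.05). The granulosa change of LHCGR, -0.82, was called only without GC ED replicate 3 (-1.14, adjusted p = 0.0246). The difference was 0.83 ± 0.59 with a 95% interval from -0.41 to 2.08. PTGS2, the prostaglandin synthase of ovulation, was at -0.81, -0.32, -1.11, -0.25 and -1.01 in GC ED and 4.44, -1.52, 4.26, 3.95 and 4.42 in GC PO. In the theca wall it was at -1.39, -1.13, -1.71, -0.46 and -1.32 at ED and 0.51, -1.80, 1.04, 0.12 and 0.63 at PO. Replicate 2 was the lowest PO array in both layers, below every ED array of its layer, and the other PO arrays lay above every ED array. The difference was 2.51 ± 1.20 (adjusted p = 0.116), and 3.66 (adjusted p = 0.000124) without GC PO replicate 2, when the theca wall rise of 1.30 was called as well (adjusted p = 0.0268); with the mean of all probes the difference was 3.61 (0.0474). CYP17A1, the androgen-making enzyme, changed by -0.74 in granulosa cells and was saturated on 5 TW ED and 4 TW PO arrays, so that its theca wall change was not measured. INHA and INHBA, the inhibin subunits alpha and beta A, were saturated on all GC ED arrays, so that the size of their granulosa changes was not measured. The difference of INHBA was called without TW ED replicates 3 and 5 (adjusted p = 0.0444). VEGFA, the vessel growth factor, changed by 0.43 and 0.36 (difference 0.07, 95% interval -0.98 to 1.12), and its granulosa rise was called without GC PO replicate 4 (0.85, adjusted p = 0.00631).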

How the data were processed

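Each array is 1 horse sample labelled with Cy3; TRIzol was used to isolate the RNA, which was then amplified, per the labels' protocols, from an oligo(dT) T7 primer. The deposited scanner files hold spot intensity, and per the file headers they were made with Agilent Feature Extraction 9.5.3.1 from a GenePix scan, and the version in the submitters' processing notes is 9.1. The main values are the deposited processed signal, an intensity that the authors' software had already background-corrected. Spots of control probes and spots marked as outliers by the scanner software did not enter, repeated spots were averaged, and log2 of the signal minus the array's 75th percentile was taken. The deposited value table holds log2 values; set against the scanner files, it matched log2 of the mean signal, with no background subtracted, after quantile normalization (largest difference 0.0329), and it served as an alternative. Levels are given as measured, and no level of a probe was set against another's.

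Probes entered if 5 or more of the 20 arrays measured them well above background, and were fitted with limma 3.58.1 in R 4.3.3 (4 group means, eBayes), with Benjamini-Hochberg adjustment over 26648 features, each gene represented by its brightest probe. Tables and figures were made with Python 3.11.15, pandas 2.3.3 and matplotlib 3.10.9, and the fit was tested on simulated data. Gene names came from the files and from RefSeq gene tables: 22153 of 43603 probes received a symbol. Where a group had no array well above background, the fold is given as "at least", against the lowest signal well above background on each array.

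The genes named were those with the largest changes in each class, up to 4 called members of each gene list with the largest difference, and a fixed list of follicle genes. The rule gave 152 genes, of which 78 are described; some others are not reported here. The members and lists were chosen with earlier results of these data known. Replicate numbers follow accession order and pair nothing, and no source used here says that samples came from separate animals beyond calling them biological replicates, so that p-values measure the spread between these samples. Alternatives were quantile scaling, the median of each array, normexp (offset 50) with quantile normalization, the deposited table, both filters on dim probes, the mean of all probes of a gene, all 34 arrays, slide as a fixed or random block, array weights, a trended robust fit, leaving out slide 7, adjusted p under 0.01 and leaving out each array. Leaving out TW ED replicates 3 and 5, or replicate 2 of GC PO and TW PO, was added after seeing the data. No coordinates were used.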

Additional observations from a re-analysis of the deposited data

Results flagged for a closer look

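The stage changes of the layers differed by the test of the difference itself at 8727 features, with opposite called directions at 362, and at 62 of the 78 genes described. Among 311 sets of 4 or 5 unflagged arrays for these genes, 28 had 1 array far from the others, and 10 such sets were found among gene lists. Chance gives about 1 in 20.

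GC PO replicate 4 was highest for ANO2 (-4.63), ASPM (-4.63), KIF20A (-4.69), the cell division list (-3.32) and the hedgehog list (-5.14), and lowest for OLR1 (-1.82) and STAR (1.59). GC PO replicate 2 was highest for CYP11A1 (5.43) and lowest for FSHR (-6.82), NIM1K (-3.57), PLAU (-0.85), PTGS2 (-1.52) and the glucocorticoid list (-0.56). GC ED replicate 5 was highest for FOXO1 (2.70) and lowest for GLI1 (-6.29), HSD17B1 (0.97), KRT18 (-0.62), SMAD2 (3.13) and VEGFA (-2.76). GC ED replicate 3 was lowest for HPD (-9.01) and the inhibin, activin and BMP list (-1.24).

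TW ED replicate 4 was highest for IL6 (-4.34), MYL7 (0.20), ROBO4 (-3.13), WT1 (-1.49), red blood cell genes (-3.84), the ovulatory cascade (-1.67), the glucocorticoid list (-1.14) and cell junctions (-1.40), and lowest for TSC22D3 (2.30) and cholesterol synthesis and uptake (0.38). TW ED replicate 3 was highest for KRT18 (-0.33), and TW ED replicate 5 lowest for VEGFA (-3.55). TW PO replicate 4 was lowest for CGA (2.18) and highest for LHCGR (-2.22), TW PO replicate 2 was highest for PARD6A (-2.54) and lowest for the cytokine list (-1.67), and TW PO replicate 5 was lowest for FSHR (-8.82).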

How the results depend on the processing

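The called differences numbered 7665 to 9534 with 1 array left out, the granulosa calls 12214 to 13470, the theca wall calls 3732 to 5935, the granulosa class 5567 to 6550, the theca wall class 706 to 1123, the opposite class 238 to 481, the unequal class 516 to 1007 and the together class 1398 to 2121. At adjusted p under 0.01 they numbered 4995 differences, 2387 theca wall calls and 4057, 335, 104, 228 and 933 features in the granulosa, theca wall, opposite, unequal and together classes. With array weights there were 11364 theca wall calls and 2167, 1348, 2322 and 2987 features in the theca wall, opposite, unequal and together classes. The opposite class held 743 features with the median of each array and 237 with all 34 arrays, where the unequal class held 256. Without TW ED replicates 3 and 5 there were 2616 theca wall calls and 468, 155, 306 and 1107 features in the theca wall, opposite, unequal and together classes, and without replicate 2 of GC PO and TW PO the opposite class held 580. The median difference of the apoptosis list, -0.20, was 0.053 after quantile scaling, 0.10 with the median of each array, 0.057 with normexp and 0.065 in the deposited table. The difference of ALDH1A3, 0.68, was -2.62 with normexp, and the theca wall change of CYP19A1, -0.31, was 1.94 without TW ED replicates 3 and 5. The causes were not tested. Slide as a fixed block pairs the ED and PO array of a layer: it gave 8658 differences, 13169 granulosa calls and 5082 theca wall calls, and 131 of the 152 named genes kept their class (149 with slide as a random block). Replicate numbers, given in accession order, pair nothing. Signal over background limits genes at or near background on all arrays of a group, and saturated spots limit CYP17A1, CYP19A1, INHA, INHBA and FDX1.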
